A study of Mus musculus with 283 samples.

Results

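Immunity-related GTPases are interferon-inducible enzymes of the mouse cytosol, and 6 of them together with the giant GTPase Gvin1 were followed here through mouse models of triple-negative breast cancer treated with immune checkpoint antibodies. The 7 genes (Igtp, Irgm1, Irgm2, Iigp1, Tgtp1, Tgtp2 and Gvin1) were chosen by name, and all 7 were found among the 45657 genes kept from the tumour and gland table and again among the 47453 genes of the cultured line table. RNA-seq covered 264 tumour or mammary gland libraries and 6 cultured lines. T11, p53-2225L and p53-2336R were classed as resistant to the therapy by the labels, and T11-UV, T11-Apobec, KPB25L and KPB25L-UV as sensitive. T11-UV and T11-Apobec are derivatives of T11, and KPB25L-UV and KPB25L-Apobec are derivatives of KPB25L, so each family is 1 parental line.

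Each of these lines was grown as an orthotopic transplant in syngeneic hosts, and mice were randomised once tumours measured 5 mm across. The therapy arm received anti-CTLA4 (125 µg) and anti-PD1 (10 mg per kg) together, injected intraperitoneally and bi-weekly, and the other arm is labelled untreated. Tumours were taken at 3 days, 7 days or the end point, with 3 to 8 mice per arm. At 7 days T11 was the only resistant model with both arms. The exome labels of the same lines give BalbC for the T11 and p53 lines and FVB for the KPB25L lines. Further untreated end-point tumours came from KPB-Primary (24), KPB-1A (5), KPB-1B (4), C3-TAG (11), PyMT (5) and ILC-Pik3Ca/Cdh1Null (10), a set with mammary glands of NML-BALBC (5) and NML-FVB (4) beside it. Single untreated end-point tumours came from T12, p53-2224L, p53-9263-3 and other p53 lines. They count in the ranges over all samples and in the Gvin1 counts by family. Further 3-day untreated tumours came from KPB25L-Apobec (5), p53-2153F (4), p53-2224L (4), p53-9263-3 (4) and KPB-1A (2). Of these models the labels class KPB25L-Apobec as sensitive and KPB-1A, p53-2153F, p53-2224L and p53-9263-3 as resistant. The exome samples (13) were not used here.

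Interferon gamma, which T cells and NK cells secrete, signals through its receptor to the nucleus and switches on this family. Iigp1, Tgtp1 and Tgtp2 are effectors that load onto and break the vacuole membranes of intracellular pathogens, and Igtp, Irgm1 and Irgm2 are regulators that sit on the cell's own membranes and hold the effectors inactive. Gvin1 encodes one of the very large inducible GTPases and has close copies beside it in the genome.

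The promoter sequences are shown first because 4 of the 6 immunity-related GTPases carry the same pair of motifs. RefSeq promoters (GRCm38.p6, from 250 bases before to 50 bases after each annotated start) were at hand for 5 of the 7 genes: Igtp, Irgm1, Irgm2, Tgtp1 and Tgtp2, all on chromosome 11. The letters TTCNNNGAA, known as the gamma-activated site, and GAAA followed by any 2 bases and GAAA again, the interferon-stimulated element bound by IRF factors, were searched on both strands. A 30-base stretch around the matches is given 5′ to 3′ on the gene's strand, with the matched letters in capitals.
Igtp: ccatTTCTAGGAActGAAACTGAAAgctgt
Irgm2: ccatTTCCAGGAActGAAACTGAAAgctgt
Tgtp1: ccatTTCCAGGAAtcGAAACTGAAAcctac
Tgtp2: ccatTTCCAGGAAtcGAAACCGAAAcctac
Irgm1: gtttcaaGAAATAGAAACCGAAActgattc

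In Igtp (chr11:58199507-58199536, plus strand), Irgm2 (chr11:58214898-58214927, plus strand), Tgtp1 (chr11:48992309-48992338, minus strand) and Tgtp2 (chr11:49064268-49064297, minus strand) a gamma-activated site came first and an interferon-stimulated element began 11 bases after its first base. The gamma-activated site began 45 bases before the annotated start in Igtp, 75 in Irgm2, 88 in Tgtp1 and 81 in Tgtp2. Irgm1 (chr11:48871428-48871457, minus strand) held 2 overlapping interferon-stimulated elements, beginning 30 and 24 bases before the start, and no match to TTCNNNGAA in this window. Of 32851 promoters of the same length, 8.3% held TTCNNNGAA, 3.44% held the interferon-stimulated element and 149 (0.454%) held both. The 11-base spacing on the gene's strand, which was noticed in these genes before it was counted, stood in 5 promoters (0.0152%): the 4 named above and Gm12185, another family member. The stretches of Igtp and Irgm2 are almost the same, as are those of Tgtp1 and Tgtp2, so the 4 are not independent cases. Among other family members with a promoter at hand, Ifi47, Gm5431, Irgq and 9930111J21Rik2 held neither motif. 9930111J21Rik1 held only the interferon-stimulated element, and Gm12250 held both motifs without that spacing. These are letter matches only, and the data hold no binding measurement.

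Igtp (chr11:58199556-58207591) and Irgm2 (chr11:58199618-58222782) overlap in the GENCODE annotation of GRCm38, while Irgm1 (chr11:48861968-48871683), Tgtp1 (chr11:48985327-48994172) and Tgtp2 (chr11:49057194-49064206) lie in a second cluster of the chromosome on the minus strand. Gvin1 (chr7:106156556-106215326, minus strand) stands apart from both clusters, and Iigp1 is on chromosome 18. Near-identical copies limit some of these values. Of the 50-base windows of Tgtp1 transcripts, 79.4% also occur in Tgtp2, and 98.3% of those of Gvin1 occur in its neighbour Gm4070 (chr7:105895139-105953967, minus strand). Igtp shared 11.8% of its windows with Irgm2. How reads of the copies were divided was not tested.

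All values below are the deposited upper-quartile normalized values as log2(value + 1), with differences on that scale, and a gene was called where limma's adjusted p over all genes tested was under 0.05. The 264 libraries had a median estimated depth of 51.3 M reads, the shallowest 3.45 M and the deepest 149.12 M. Of the 27 KPB25L-UV libraries, 6 carried transcripts that mark the T11 line: the mean level of 50 such markers was 6.22 to 8.35 in them, 1.62 to 3.28 in the other 21, and 6.85 to 9.29 in the 74 T11, T11-UV and T11-Apobec libraries. The markers of those 6 libraries go against their label, though their Gvin1 values of 10.04 to 13.20 lay within the range of the other KPB25L-UV libraries. Changes of the 7 genes that rest on these libraries are given with and without them. Counts over other gene lists include them. The same mouse numbers are given to the 4 treated T11-UV libraries at 7 days and the 4 treated KPB25L-UV libraries at the end point. Where nothing states that replicates are separate mice, the tests measure only the spread between the samples.

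Irgm1 was the most evenly expressed of the 7 genes and Gvin1 the least. Over 263 tumour and gland samples Irgm1 had a lowest value of 9.70, a median of 11.86 and a highest value of 14.86, and the means of the 47 groups of classed models spanned 4.15, wider than in 56.8% of the genes tested. Irgm2 ran from 7.22 through a median of 10.03 to 14.22, and Igtp from 7.00 through 10.59 to 15.71. The effectors spread further. Iigp1 ran from 4.74 through 10.36 to 16.46 and its group means spanned 9.73, Tgtp1 ran from 3.24 through 9.35 to 14.97, and Tgtp2 from 4.92 through 9.68 to 15.30. Gvin1 ran from 0 through 5.29 to 15.02, and its group means spanned 12.92, wider than in 99.7% of the genes tested. Levels are not compared between genes, because the values are not per length.

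All 6 immunity-related GTPases were highest in the same 3 of the 50 groups of 3 or more samples. Igtp averaged 15.41 ± 0.33 (SD, n = 4) in treated T11-Apobec tumours at 3 days, 14.95 ± 0.18 (n = 4) in treated T11-UV tumours at 7 days and 14.92 ± 0.26 (n = 4) in treated T11-Apobec tumours at 7 days, and the other 5 genes had these 3 groups at the top in the same or another order. The bottom of the order differed by gene. Untreated p53-2225L tumours at 3 days were lowest for Igtp (7.79 ± 0.21, n = 4), Irgm2 (8.04 ± 0.21) and Iigp1 (6.10 ± 0.32). Untreated p53-2336R tumours at 3 days were lowest for Irgm1 (10.45 ± 0.31, n = 3), treated KPB25L end-point tumours for Tgtp1 (6.09 ± 0.70, n = 3) and PyMT tumours for Tgtp2 (5.87 ± 0.59, n = 5). Between neighbours in the order the ranges of the samples overlapped in all 49 pairs for each of the 7 genes, so only groups further apart are told apart by their spread.

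**Figure D1:**
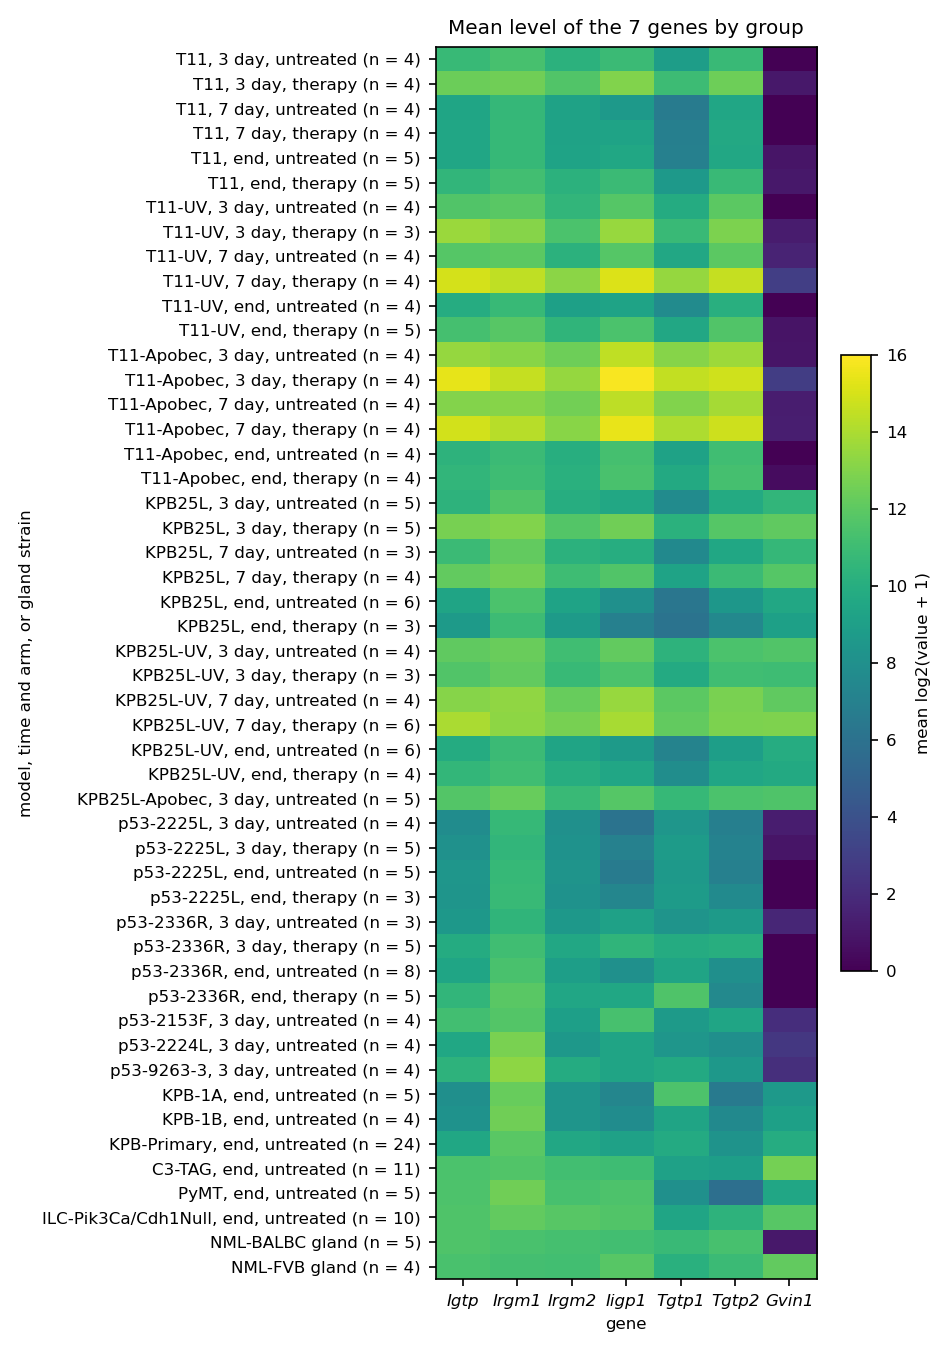
Mean log2(value + 1) of each of the 7 genes (columns) in every group of 3 or more samples (rows), shown as colour from 0 to 16. The 3 brightest rows of the first 6 columns are treated T11-Apobec tumours at 3 and 7 days and treated T11-UV tumours at 7 days, and the Gvin1 column is dark in the T11 and p53 rows.

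At 7 days the 6 immunity-related GTPases rose under therapy in the sensitive models and Gvin1 did not pass the test. The comparison gives T11-UV, T11-Apobec, KPB25L and KPB25L-UV the same weight, and it called 36.5% of the genes tested, so 6 of 7 called is read against that share. Of the 6, Igtp had the largest change. In T11-UV the untreated Igtp values were 13.75, 11.41, 11.15 and 10.85 and the treated values 15.16, 14.72, 14.98 and 14.96. In T11-Apobec they were 13.44, 12.93, 12.68 and 12.95 untreated and 14.97, 14.57, 15.20 and 14.94 treated. Neither model's arms overlapped. In KPB25L the untreated mice had Igtp at 9.46, 11.29 and, in 2 libraries of 1 mouse, 11.94 and 11.96, and the treated mice at 13.55, 11.31, 11.46 and 12.33, with overlapping arms. Over the 4 models Igtp rose by 1.80 (SE 0.37, 3.49-fold, adjusted p = 4.83e-05), Irgm1 by 1.03 (SE 0.24, adjusted p = 3.96e-04) and Irgm2 by 1.16 (SE 0.32, adjusted p = 0.00288).

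The effectors rose with the regulators. In T11-UV the untreated Iigp1 values of 13.80, 11.58, 10.91 and 10.84 lay below the treated values of 15.13, 15.18, 14.84 and 15.57. In T11-Apobec the untreated Iigp1 values of 14.84, 14.34, 14.14 and 14.22 lay below the treated values of 15.18, 15.51, 15.80 and 15.32, a gap that was narrow because the untreated tumours were already high. Over the 4 sensitive models Iigp1 rose by 1.65 (SE 0.49, adjusted p = 0.00555), Tgtp1 by 1.70 (SE 0.55, adjusted p = 0.00962) and Tgtp2 by 1.25 (SE 0.42, adjusted p = 0.0142). Gvin1 differed by 0.83 (SE 0.63, adjusted p = 0.308). Without the 6 KPB25L-UV libraries that carry T11 markers, the changes of the 6 called genes were larger, from 1.23 for Irgm1 to 2.15 for Igtp, and 6 were again called.

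**Figure D2:**
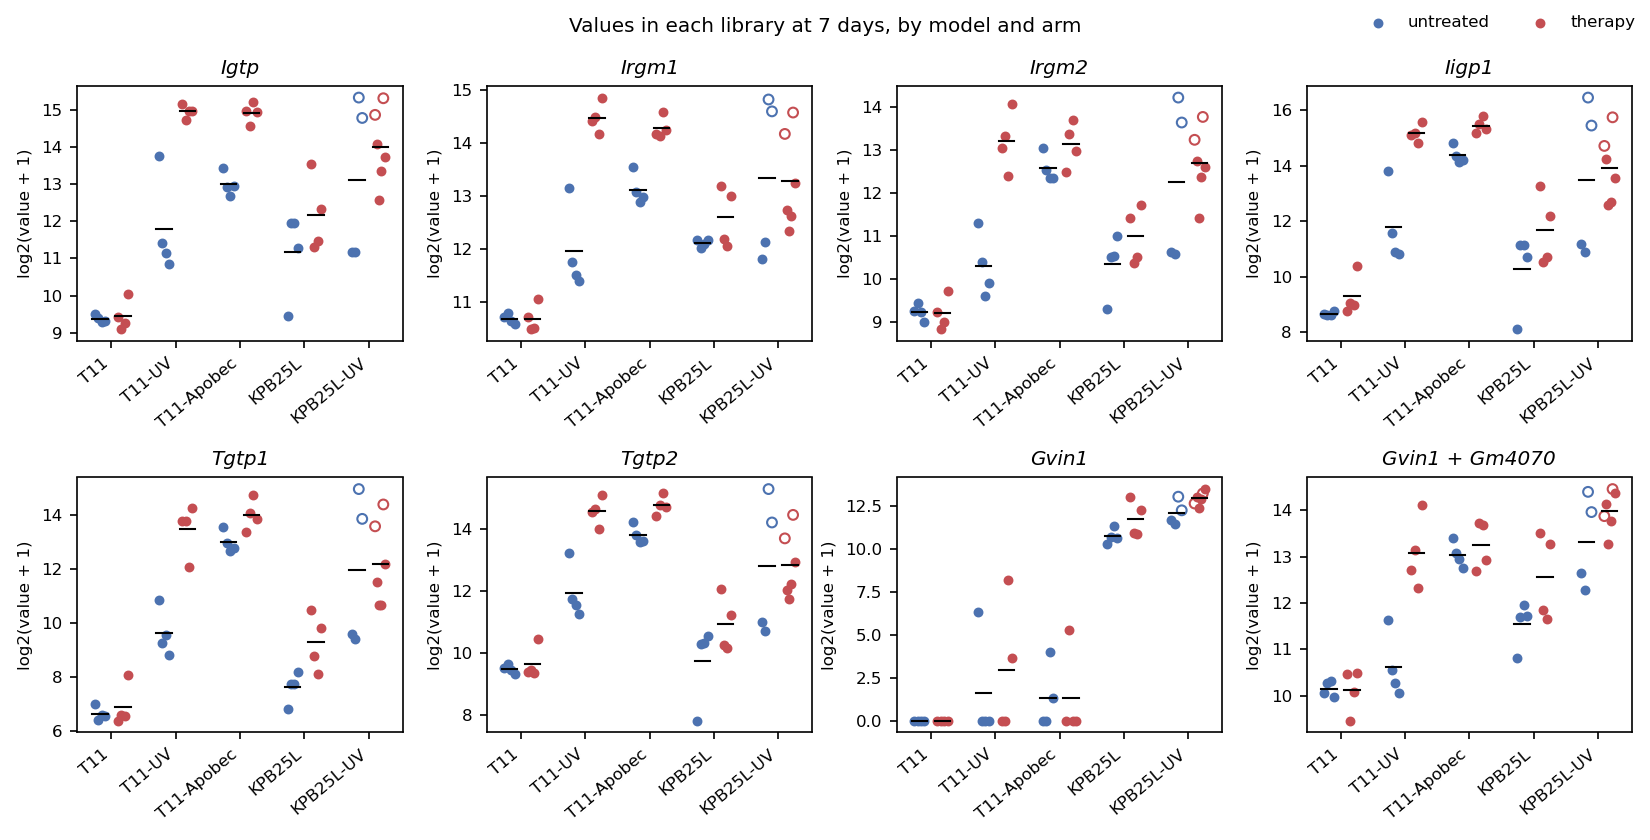
Log2(value + 1) of each gene, and of Gvin1 and Gm4070 summed, in every library at 7 days, by model (x axis) and arm (blue untreated, red therapy); black lines are means over libraries, open circles are KPB25L-UV libraries that carry T11 markers, and KPB25L untreated includes 2 libraries of 1 mouse. The T11 arms lie together near the bottom of the first 6 panels, and the treated T11-UV points stand above all 4 untreated ones.

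Taken singly, T11-UV had the most genes called. All 6 immunity-related GTPases were called there (7.43% of genes called): Tgtp1 rose by 3.86 (SE 1.10, adjusted p = 0.0143), Iigp1 by 3.40 (SE 0.99, adjusted p = 0.0170), Igtp by 3.16 (SE 0.73, adjusted p = 0.00187), Irgm2 by 2.92 (SE 0.65, adjusted p = 0.00107), Tgtp2 by 2.63 (SE 0.85, adjusted p = 0.0360) and Irgm1 by 2.52 (SE 0.48, adjusted p = 1.17e-04). Here and in T11-Apobec, the share of all genes whose arms do not overlap was not counted. The 2 arms of T11-UV at 7 days were read on different flow cells, so within it these cannot be told apart. In a fit with the flow cell as a term, which leans on the other models, the estimates were 2.96 for Irgm1 to 5.65 for Tgtp1 and none was called. Without untreated T11-UV replicate 4, 3 of the 6 were called. Over the 8 fits that each left out 1 library, Tgtp2 was called in only 2, Iigp1 in 6 and Tgtp1 in 7. Igtp, Irgm1 and Irgm2 were called in all 8. T11-Apobec (29.1% called) had 1 gene called, Igtp (1.92, SE 0.73, adjusted p = 0.0376), and the arms of Igtp, Irgm1, Iigp1 and Tgtp2 did not overlap. That call is lost without any 1 of 6 of its 8 libraries, namely untreated replicates 2, 3 and 4 and treated replicates 1, 3 and 4.

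KPB25L (0% called) had none of the 7 called at 7 days, with Igtp at 1.26 (SE 0.79, adjusted p = 0.878). KPB25L-UV (19.7% called) had none called with all libraries, where Igtp differed by 0.87 (SE 0.67, adjusted p = 0.358) and Irgm1 by -0.06 (SE 0.44). Its 4 libraries with T11 markers at 7 days were the highest of their arms for Igtp: 15.32 and 14.78 against 11.18 and 11.16 in the untreated arm, and 14.86 and 15.31 against 12.57 to 14.09 in the treated arm. Without them Igtp rose by 2.26 (SE 0.84, adjusted p = 0.0455) and Irgm1 differed by 0.76 (SE 0.54), so the Igtp call and the sign of Irgm1 rest on those libraries.

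In T11, the resistant parental line, the treated and untreated libraries lay together at 7 days and no gene was called (0% called, and none of the 7 at an unadjusted p under 0.05). Igtp was 9.51, 9.39, 9.30 and 9.33 untreated and 9.43, 9.10, 9.25 and 10.05 treated, and Iigp1 was 8.66, 8.64, 8.62 and 8.79 untreated and 8.76, 9.06, 9.0 and 10.40 treated. A single treated library, replicate 4, was the highest for all 6 genes. The differences ran from -0.03 (SE 0.65) for Irgm2 to 0.62 (SE 0.99) for Iigp1. Whether the therapy effect itself differed was tested as an interaction. The mean effect of the sensitive models minus that of T11 was 1.73 (SE 0.82, adjusted p = 0.514) for Igtp, the largest of the 7, and none was called (0.0048% called, with Igtp alone at an unadjusted p under 0.05). Without the 6 KPB25L-UV libraries it was 2.07 (SE 0.78, adjusted p = 0.290). For T11-UV minus T11 it was 2.52 (SE 0.68, adjusted p = 0.0522) for Irgm1 and 3.60 (SE 1.55, adjusted p = 0.338) for Tgtp1, with none called (0.571% called, 6 at an unadjusted p under 0.05). Over the alternatives the adjusted p of Irgm1 ran from 0.00839, with the spread of the compared groups alone, to 0.320, with the flow cell as a term (2.95, SE 1.21). It passed also after rescaling by the median log ratio (2.64, adjusted p = 0.0288), with a pseudocount of 10 (2.51, adjusted p = 0.0400) and without the KPB25L-UV libraries that carry T11 markers (2.52, adjusted p = 0.0239). For T11-Apobec minus T11 it ran from 0.01 for Gvin1 to 1.84 (SE 1.04) for Igtp, with none called (4.61% called).

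Other genes of the interferon gamma pathway moved in the same direction at 7 days. In the sensitive models 9 of 11 guanylate-binding proteins, a related family of inducible GTPases, rose and none fell, with a median change of 1.66 against -0.06 for all genes tested, and the 3 with the smallest adjusted p were Gbp2 (1.57, SE 0.32), Gbp5 (1.71, SE 0.36) and Gbp4 (1.91, SE 0.43). Of 10 other immunity-related GTPases tested, 5 rose and 1 fell; Ifi47 rose by 1.30 (SE 0.27, adjusted p = 5.53e-05), and Irgq, the one that fell and named for that after its values were seen, changed by -0.36 (SE 0.10, adjusted p = 0.00223). Of 10 interferon gamma signalling genes 6 rose, among them Ifng (3.15, SE 0.55), the negative regulator Socs1 (1.69, SE 0.29) and the transcription factor Irf1 (1.13, SE 0.20). These counts stand beside 36.5% of all genes called, 3228 of them higher and 4385 lower. Type I interferon response genes rose in 7 of 16 with a median of 0.59, and autophagy conjugation genes, which help the effectors reach their membranes, in 3 of 10 with a median of 0.11. In T11 none of these lists had a gene called, and the median of the guanylate-binding proteins was -0.08.

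Markers of T cells and NK cells moved with the genes. In the sensitive models at 7 days all 9 T cell markers rose, with a median of 2.64, and all 5 NK cell markers, with a median of 1.18. The summed T cell markers of T11-UV ranged from 9.10 to 11 in untreated and from 12.56 to 12.94 in treated libraries, those of T11-Apobec from 10.57 to 11.33 and from 13.14 to 13.85, and those of T11 from 8.07 to 8.73 and from 8.0 to 9.21. All 9 markers were above 0 in every one of these libraries. Macrophage markers rose in 5 of 8, B cell markers in 4 of 6 and dendritic cell markers in 5 of 5, where 36.5% of all genes were called in either direction. Their part in the result was not tested. In bulk tissue, fewer cells of a type and less RNA per cell cannot be told apart.

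At 3 days 2 regulators were called in the sensitive models, where 13.8% of genes were called. Igtp rose by 1.44 (SE 0.37, adjusted p = 0.00993) and Irgm1 by 0.97 (SE 0.24, adjusted p = 0.00843), while Iigp1 at 1.33 (SE 0.50, adjusted p = 0.0576), Irgm2 at 0.84 (SE 0.33, adjusted p = 0.0662), Tgtp2, Tgtp1 and Gvin1 did not pass. T cell markers had 0 of 9 called here, with a median of 0.18, and guanylate-binding proteins 6 of 11. Without the KPB25L-UV library with T11 markers at 3 days Igtp rose by 1.63 (SE 0.36) and Irgm1 by 1.06 (SE 0.23). The count was not steady: it was 4 without the KPB25L-UV libraries with T11 markers and 0 with a flow-cell term. Leaving out 1 library gave 1 to 4: 1 without T11-UV treated replicate 1 or 3, and 4 without T11-UV treated replicate 2, KPB25L treated replicate 1 or 3, KPB25L untreated replicate 5 or KPB25L-UV untreated replicate 3.

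The KPB25L tumours split at 3 days. Treated Igtp values were 9.91, 14.79, 10.56, 14.33 and 14.03 and untreated values 10.61, 10.04, 9.28, 9.80 and 11.93, so 3 treated libraries stood above every untreated one and 2 lay among them. Iigp1 followed the same split, with 8.92, 14.85, 9.63, 14.58 and 14.57 in the treated libraries. NK cell markers were called higher in 4 of 5 in this comparison, T cell markers in 3 of 9, macrophage markers in 2 of 8 and adipocyte markers in 1 of 5. The summed NK cell markers ranged from 7.49 to 8.42 untreated and from 7.63 to 12.45 treated, and their part in the result was not tested. Igtp (2.39, SE 0.66, adjusted p = 0.00890), Irgm1 (1.38, SE 0.43), Irgm2 (1.73, SE 0.58) and Iigp1 (2.90, SE 0.89, adjusted p = 0.0179) were called, with 14.6% of genes called, and with the flow cell as a term none was, Igtp being 0.61 (SE 0.82). With the spread set by the groups compared alone none was called either. T11-UV (14.1% called), T11-Apobec (0.134% called) and KPB25L-UV (0% called) had none of the 7 called at 3 days, with Igtp at 1.92 (SE 0.79), 1.93 (SE 0.73) and -0.49 (SE 0.79), the last turning to 0.29 (SE 0.79) without the KPB25L-UV library with T11 markers. The treated and untreated Igtp ranges of T11-Apobec did not overlap, at 14.95 to 15.71 and 12.26 to 14.52.

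The resistant models pointed the same way at 3 days without a call. Over T11, p53-2225L and p53-2336R none of the 7 was called (0% called), while 6 had an unadjusted p under 0.05, with Iigp1 at 1.45 (SE 0.57), Igtp at 1.11 (SE 0.42) and Tgtp1 at 1.33 (SE 0.63). T11 itself (0% called) had Igtp at 11.66, 9.61, 10.59 and 11.15 untreated and 12.11, 11.89, 14.77 and 10.80 treated, with overlapping arms and a difference of 1.64 (SE 0.73, adjusted p = 1.00). With the flow cell as a term Igtp was called over the 3 models (2.34, SE 0.61, adjusted p = 0.0430). In p53-2225L (0% called) Igtp differed by 0.33 (SE 0.70) and in p53-2336R (0% called) by 1.35 (SE 0.76). The sensitive effect minus the resistant effect at 3 days was 0.33 (SE 0.56, adjusted p = 0.847) for Igtp and -0.11 (SE 0.76) for Iigp1, with none called (0% called), and with the flow cell as a term the Igtp value turned to -1.05 (SE 0.80). The T11 effect at 3 days minus that at 7 days was 1.56 (SE 1.04, adjusted p = 1.00) for Igtp, with none called (0% called).

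At the end point no gene of the 7 was called in any model. The sensitive models together (0.0288% called) had Igtp at 0.42 (SE 0.35) and Tgtp1 at 0.70 (SE 0.53), or 0.44 (SE 0.33) and 0.72 (SE 0.51) without the KPB25L-UV library with T11 markers, and the resistant models together (0% called) had Iigp1 at 1.18 (SE 0.52) and Tgtp1 at 1.36 (SE 0.58). T11-UV (0.576% called) came nearest, with Iigp1 at 2.18 (SE 0.94, adjusted p = 0.339) and 5 genes at an unadjusted p under 0.05, but with the flow cell as a term Iigp1 was -0.11 (SE 2.60). T11-Apobec (0% called), KPB25L (0.0048% called), KPB25L-UV (5.87% called), T11 (0% called), p53-2225L (0.125% called) and p53-2336R (1.39% called) had Igtp differences from -0.63 (SE 0.73) in KPB25L to 1.10 (SE 0.59) in p53-2336R. In KPB25L-UV it was 0.75 (SE 0.67) with all libraries and 0.82 (SE 0.65) without the one with T11 markers.

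**Figure D3:**
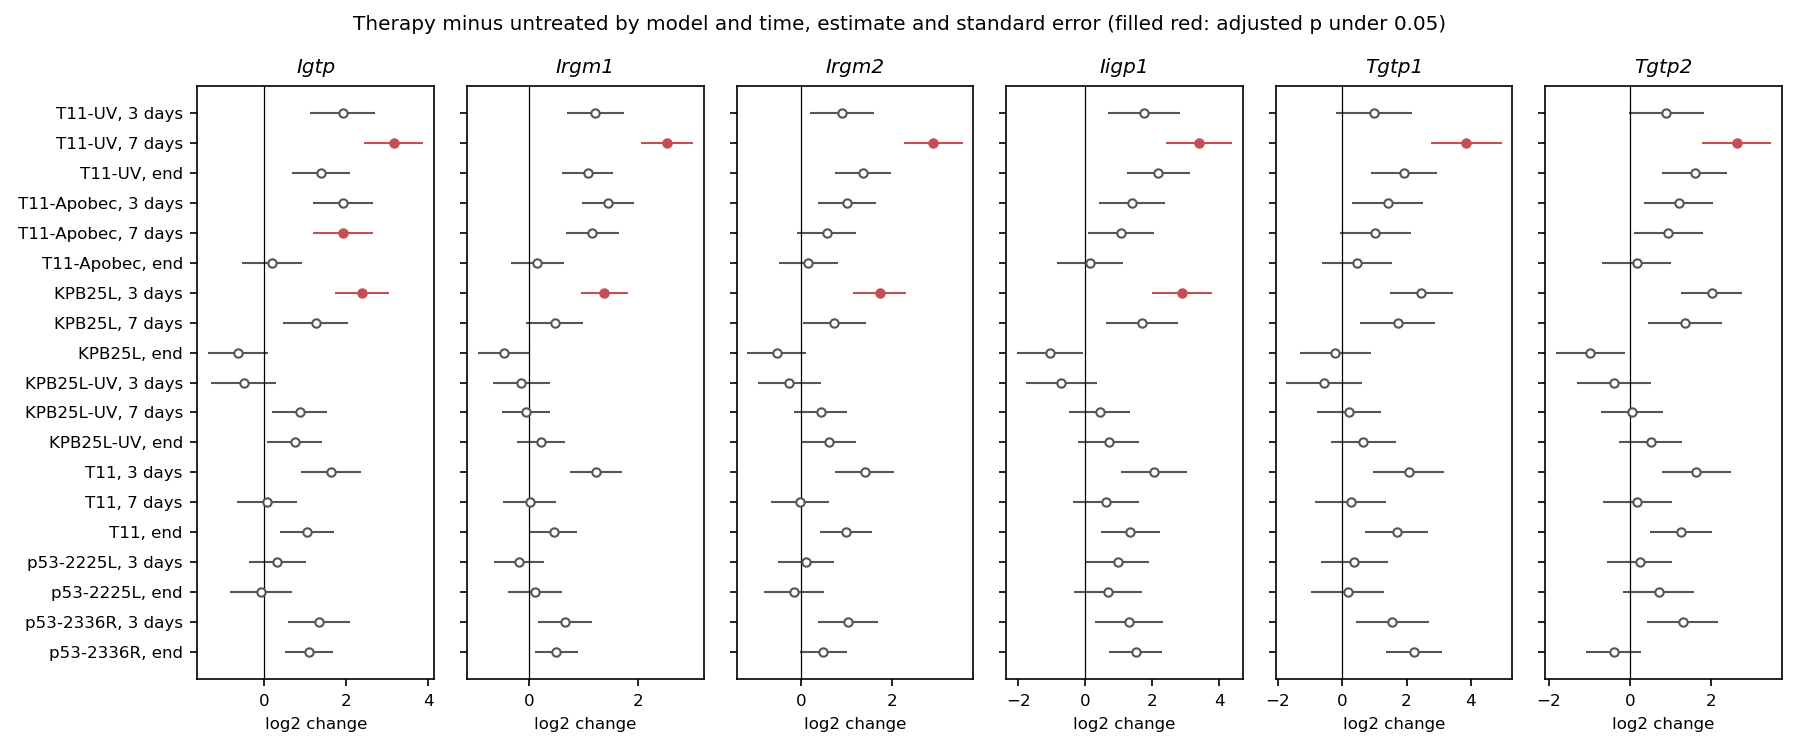
Therapy minus untreated for the 6 immunity-related GTPases (panels) in each model and time (rows), as log2 change with its standard error; red filled points have an adjusted p under 0.05. The filled points are all 6 genes in T11-UV at 7 days, Igtp in T11-Apobec at 7 days and 4 genes in KPB25L at 3 days.

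Untreated tumours of one family differed as much as the arms did. At 7 days untreated T11-Apobec tumours stood far above untreated T11 tumours, with 6 of 7 genes called (4.33% of genes called). Tgtp1 was 13.56, 12.95, 12.67 and 12.79 in T11-Apobec and 7.00, 6.42, 6.61 and 6.54 in T11, a difference of 6.35 (SE 1.10, 81.6-fold, adjusted p = 1.33e-05). Iigp1 differed by 5.70 (SE 0.99, 52.1-fold, adjusted p = 1.44e-05), Tgtp2 by 4.34 (SE 0.85, adjusted p = 1.51e-04), Igtp by 3.62 (SE 0.73, adjusted p = 2.87e-04), Irgm2 by 3.34 (SE 0.65, adjusted p = 1.37e-04) and Irgm1 by 2.44 (SE 0.48, adjusted p = 1.78e-04). Whether effectors and regulators differed in size of change was not tested. All 6 were called again when any 1 of the 8 libraries was left out, and both groups were read on the same flow cell. With them, 11 of 11 guanylate-binding proteins, 8 of 9 T cell markers and 4 of 5 NK cell markers were called higher, and 0 of 16 type I interferon response genes. The part of those cells was not tested.

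Untreated T11-UV against T11 at 7 days (20.3% called) called 5 genes, Iigp1 at 3.10 (SE 0.99, adjusted p = 0.0172), Tgtp1 at 2.98, Tgtp2 at 2.46, Igtp at 2.41 and Irgm1 at 1.27. Of the 4 T11-UV libraries, replicate 1 was the highest for all 6 immunity-related GTPases, for example Igtp at 13.75 against 10.85 to 11.41 in the others. Without that replicate none was called, and without any 1 of the 4 T11 libraries 2 or 3 were. A flow-cell term could not be fitted for this comparison, so the part of the flow cell was not tested. T11 against KPB25L at 3 days (32.5% called) called Gvin1 only, and Igtp differed by 0.42 (SE 0.70).

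Between classes, 12 models with untreated 3-day tumours were compared with the model as the replicate, 5 sensitive against 7 resistant. None of the 7 was called (0% called), and 4 had an unadjusted p under 0.05. Model means of Tgtp2 were 11.95 in T11-UV, 13.63 in T11-Apobec, 9.79 in KPB25L, 11.47 in KPB25L-UV and 11.49 in KPB25L-Apobec, and 10.83 in T11, 6.29 in KPB-1A, 9.39 in p53-2153F, 7.98 in p53-2224L, 6.88 in p53-2225L, 8.73 in p53-2336R and 8.52 in p53-9263-3. For Tgtp2 the resistant T11 lay inside the sensitive range and the other 6 resistant models below it. For Igtp the sensitive means ran from 10.33 to 13.48, and T11 (10.75), p53-2153F (11.15) and p53-9263-3 (10.35) lay inside that range. For Iigp1 T11 (10.93) and p53-2153F (11.33) lay inside the sensitive range of 9.61 to 14.44. Tgtp2 was 3.29 higher in the sensitive models (SE 0.76, adjusted p = 0.0567), Irgm2 2.08 (SE 0.49, adjusted p = 0.0567), Iigp1 2.73 (SE 0.88, adjusted p = 0.102) and Igtp 2.38 (SE 0.64, adjusted p = 0.0662). Without the model T11, 4 were called. Irgm1 differed by 0.51 (SE 0.47, adjusted p = 0.561). With the KPB25L-UV library that carries T11 markers left out, Tgtp2 was 3.17 higher (adjusted p = 0.0583). KPB25L-UV and KPB25L-Apobec derive from KPB25L, and T11-UV and T11-Apobec derive from T11, which is in the resistant class. These models are therefore not independent lines, either within the sensitive class or between the classes.

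Between 3 days and the end point the 6 immunity-related GTPases fell in untreated tumours. Over the 7 models that had both arms at 3 days and at the end point, which leaves out KPB-1A, p53-2224L and p53-9263-3, the end point minus 3 days was -1.80 (SE 0.35, adjusted p = 3.82e-04) for Iigp1, -1.61 (SE 0.39, adjusted p = 0.00530) for Tgtp1, -1.46 (SE 0.30, adjusted p = 7.56e-04) for Tgtp2, -1.13 (SE 0.26, adjusted p = 0.00332) for Igtp, -0.95 (SE 0.23, adjusted p = 0.00534) for Irgm2 and -0.67 (SE 0.17, adjusted p = 0.00885) for Irgm1. Only 5.37% of genes were called in this comparison, 899 lower and 221 higher, and 6 of 7 were called when any 1 of 66 libraries was left out. A flow-cell term could not be fitted for it, so time and flow cell were not separated. Without the KPB25L-UV libraries that carry T11 markers 6 were called too, Iigp1 at -1.72 (SE 0.34). Gvin1 differed by -0.81 (SE 0.45, adjusted p = 0.337). With them fell 9 of 11 guanylate-binding proteins, 6 of 9 T cell markers, 6 of 8 macrophage markers and 7 of 10 interferon gamma signalling genes. Of the type I interferon response genes, Ifit3, Irf9, Oas1a, Oas2 and Stat2 were called lower and the rest were not called. The dendritic cell markers Clec9a, Itgax and Xcr1 and the NK cell markers Klrb1c and Klrd1 were called lower, and no others of those lists. The part of those cells was not tested.

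Tgtp1 and Tgtp2, the near-identical pair, did not keep a fixed ratio between models. The difference of Tgtp2 minus Tgtp1 had a median of 2.30 in T11, 1.99 in T11-UV and 0.76 in T11-Apobec, and of -4.59 in KPB-1A, where it ran from -5.68 to -3.46, and -2.08 in PyMT. KPB-Primary covered most of that span, from -5.55 to 1.43. At the end point p53-2336R held both states. Treated libraries had Tgtp1 at 12.72, 8.69, 12.23, 12.21 and 12.11 with Tgtp2 at 6.32, 8.60, 8.48, 7.20 and 7.09. Untreated libraries had Tgtp1 at 8.53, 8.28, 12.84, 11.86, 3.24, 7.65, 9.72 and 12.76 with Tgtp2 at 8.84, 8.58, 7.26, 7.34, 5.97, 8.33, 10.95 and 6.26. The 7 libraries with Tgtp1 above 11 were also those with the highest Krt8, a luminal keratin chosen after its values were seen, at 13.41 to 17.02 against 10.08 to 11.72 in the other 6. They made up 4 of 5 treated and 3 of 8 untreated libraries, and Tgtp1 differed between the arms by 2.23 (SE 0.88, adjusted p = 0.206) while Tgtp2 differed by -0.40 (SE 0.68).

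**Figure D4:**
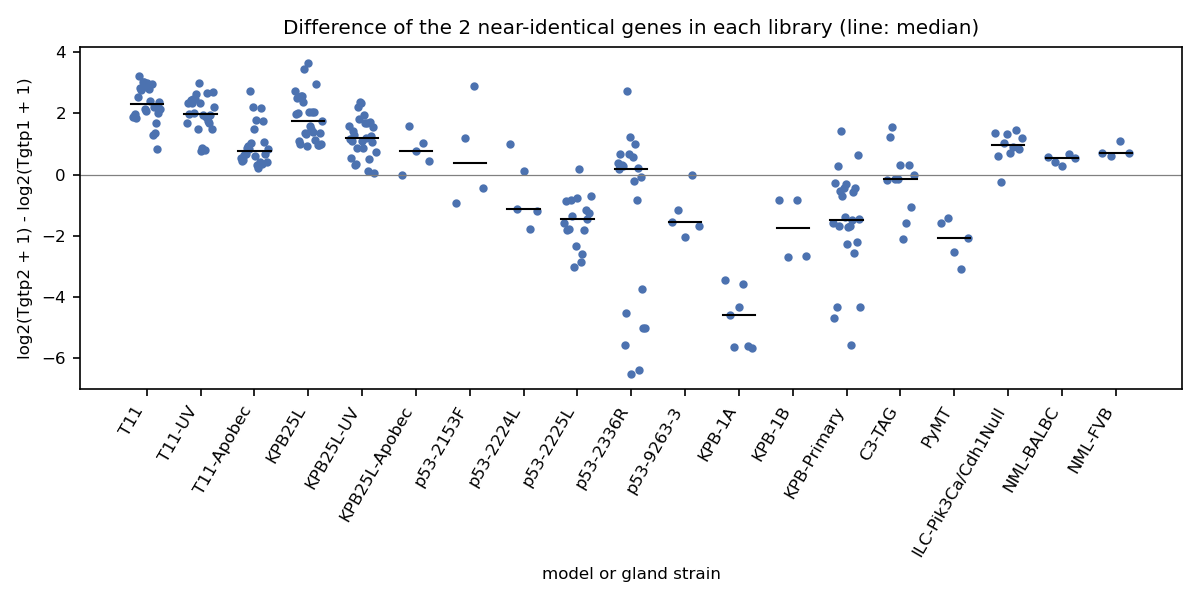
Tgtp2 minus Tgtp1 (log2 scale, y axis) in each library by model or gland strain (x axis), with the median as a line. KPB-1A lies between -5.68 and -3.46, and p53-2336R has 7 libraries below -3 and the rest between -0.83 and 2.72.

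Summing the pair removes the division of reads between them, an alternative chosen after seeing the data. The sum rose by 1.36 (SE 0.45, adjusted p = 0.0114) in the sensitive models at 7 days and by 2.94 (SE 0.90, adjusted p = 0.0243) in T11-UV, and it was 4.79 higher (SE 0.90, adjusted p = 6.68e-05) in untreated T11-Apobec than in T11. At the end point it was 1.30 lower than at 3 days (-1.30, SE 0.32, adjusted p = 0.00610). The direction of each comparison was that of both genes taken singly.

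Gvin1 differed most between families of tumours. In the 140 libraries of T11, T12 and p53 models and BALB/c glands it was at 0 in 111 and above 8 in 4, with a highest value of 8.70. In the 98 libraries of KPB models and FVB glands it ran from 6.99 to 13.46, and in the 26 C3-TAG, PyMT and ILC libraries from 7.95 to 15.02. Among normal glands, Gvin1 was the 1 gene of the 7 called between NML-BALBC and NML-FVB (2.29% called): 4 of 5 BALB/c glands were at 0 and 1 at 5.22, while 4 FVB glands ran from 11.13 to 13.05. The fitted difference was -11.11 (SE 0.80, adjusted p = 5.06e-17), a value that depends on the pseudocount. At 3 days the 4 untreated T11 tumours were all at 0 and the KPB25L mean was 10.50. Gvin1 was above 0 in only 5 of 24 T11-UV libraries, up to 8.14, and 8 of 24 T11-Apobec libraries, up to 6.29. A therapy change of Gvin1 was therefore looked at in the KPB25L models. In KPB25L-UV at 7 days the arms overlapped with all libraries, at 11.45 to 13.01 untreated and 12.36 to 13.46 treated. Without the libraries with T11 markers, 2 untreated ones lay at 11.45 and 11.66 and 4 treated ones at 12.36 to 13.46. The fitted difference was then 1.37 (SE 1.57, adjusted p = 0.574). These 2 arms did not overlap, but the share of all genes without overlap was not counted. In KPB25L at 3 days the untreated values of 10.98, 9.90, 9.61, 10.38 and 11.62 overlapped the treated values of 10.27, 13.12, 10.48, 13.46 and 13.12, a difference of 1.59 (SE 1.13, adjusted p = 0.342).

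The neighbour Gm4070 did not show this split. In the same 140 libraries it ran from 6.10 to 14.45 and was never at 0, and in the 98 KPB and FVB libraries from 7.58 to 13.69. Other relatives of Gvin1 differed from one another between the glands. Gm1966 was lower in BALB/c than in FVB glands (-3.68, SE 0.70, adjusted p = 2.43e-04), and Gm8995 was not called (0.61, SE 0.60). With Gvin1 and Gm4070 summed, an alternative chosen after seeing the data, the gland difference was -0.67 (SE 0.75, adjusted p = 0.792) and T11 minus KPB25L was -1.04 (SE 0.55, adjusted p = 0.141), so neither was called. Whether the values at 0 come from the assignment of reads between the copies was not tested. Among the tumours strain and family cannot be told apart, while the glands, which come from no tumour line, differed in Gvin1 by strain label.

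**Figure D5:**
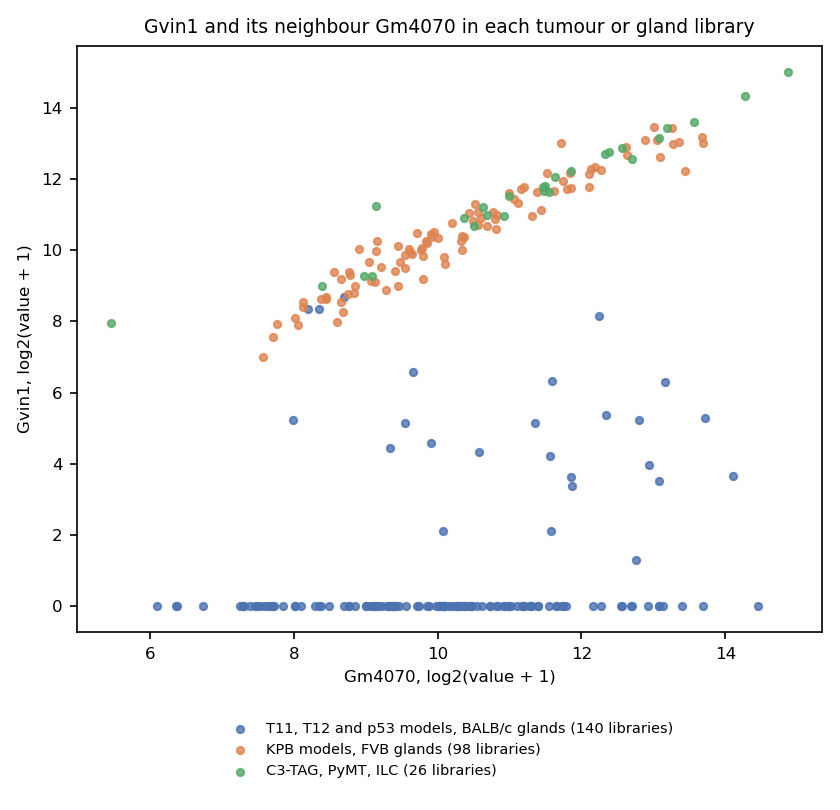
Gvin1 (y axis) against Gm4070 (x axis), both log2(value + 1), in each of 264 tumour or gland libraries, coloured by family. The 98 KPB and FVB libraries lie along a rising line, while 111 of the 140 T11, T12, p53 and BALB/c libraries lie at 0 on the y axis across the whole range of Gm4070.

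The sum of Gvin1 and Gm4070 moved in the direction of the other 6 genes in 4 comparisons. It was called in the sensitive models at 7 days (1.11, SE 0.29, adjusted p = 0.00141), in T11-UV at 7 days (2.44, SE 0.58, adjusted p = 0.00240), in untreated T11-Apobec against T11 (2.89, SE 0.58, adjusted p = 2.38e-04) and between the end point and 3 days (-0.97, SE 0.21, adjusted p = 0.00125). In T11-UV at 7 days it was 11.63, 10.55, 10.27 and 10.06 untreated and 12.71, 13.13, 12.32 and 14.11 treated. Those arms did not overlap. Gm4070 alone rose by 1.08 (SE 0.30, adjusted p = 0.00271) in the sensitive models. In T11, T11-UV and T11-Apobec the sum had the same lowest, median and highest values as Gm4070 alone. Gm4070 by itself changed by 2.43 (SE 0.60) in T11-UV at 7 days and by 2.89 (SE 0.60) in untreated T11-Apobec against T11. Those 2 calls of the sum are therefore calls of Gm4070. Gvin1 alone was not called in any of these 4 comparisons.

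Against normal glands, Tgtp2 fell in KPB-Primary, PyMT and C3-TAG. The comparison weighs the BALB/c and FVB glands equally. In KPB-Primary (64.6% called) 6 of 7 genes were called: Tgtp2 fell by 2.91 (SE 0.52, adjusted p = 1.86e-06), Iigp1 by 2.34 (SE 0.51), Igtp by 1.98 (SE 0.42) and Irgm2 by 1.64 (SE 0.35), Irgm1 was 0.61 higher (SE 0.27, adjusted p = 0.0418) and Gvin1 3.32 higher. With the flow cell as a term the KPB-Primary falls were larger, Iigp1 at -5.11 (SE 1.30), Tgtp2 at -4.07 (SE 1.36), Igtp at -3.72 (SE 1.04) and Irgm2 at -3.10 (SE 0.88), and each was called. PyMT (47.9% called) had Tgtp2 at 4.92 to 6.50 against 10.19 to 12.86 over both gland strains, a fall of 5.27 (SE 0.74, adjusted p = 1.63e-08), with Tgtp1 2.50 lower (-2.50, SE 0.82) and Irgm1 1.19 higher (SE 0.38, adjusted p = 0.00822), so that 4 of 7 were called with Gvin1. Beside Gvin1, C3-TAG (66.9% called) had Tgtp2 2.16 lower (-2.16, SE 0.59, adjusted p = 0.00116), and the ILC model (42.3% called) had Irgm1 0.82 higher (SE 0.32, adjusted p = 0.0317). Igtp and Irgm2 were not called in PyMT, C3-TAG or ILC, where their differences ran from -0.07 to 0.63.

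Irgm1 and Tgtp2 went opposite ways in KPB-Primary and PyMT. The Irgm1 call in KPB-Primary and in ILC was lost with FVB glands alone (0.71, adjusted p = 0.0986 and 0.92, adjusted p = 0.0767), and in KPB-Primary also after rescaling by the median log ratio (0.52, adjusted p = 0.0955) and with the flow cell as a term (1.55, adjusted p = 0.0828), under which Gvin1 was not called there either (2.05, adjusted p = 0.215). In PyMT the Irgm1 call held with FVB glands alone (1.29, adjusted p = 0.0195), while the Tgtp1 call was lost (-2.14, adjusted p = 0.0723). Gvin1 was higher in all 4 models than the average of both gland strains, which includes the BALB/c glands at or near 0. With FVB glands alone it was 2.24 lower in KPB-Primary (-2.24, SE 0.65, adjusted p = 0.00267) and 2.72 lower in PyMT (-2.72, SE 0.80, adjusted p = 0.00457), and it was not called in C3-TAG (0.51) or ILC (-0.33). T cell markers were lower in all 9 genes in each of the 4 models, with medians from -7.33 in PyMT to -2.02 in ILC, as were all 5 adipocyte markers. In PyMT 11 of 16 type I interferon response genes rose and 8 of 11 guanylate-binding proteins fell. The part of those cells was not tested.

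The genes most like each member were other interferon-response genes, apart from Gvin1. Over the residuals of 192 samples from their group means, the genes most like Irgm2 included Gbp3 (r = 0.926), those most like Igtp Gbp2 (r = 0.931) and those most like Irgm1 Gbp7 (r = 0.869). Gbp5 was closest to Iigp1 (r = 0.925) and Tgtp2 (r = 0.890), and Tap1, a peptide transporter of antigen presentation, to Tgtp1 (r = 0.846). Gvin1's closest gene was Ap1b1 at r = 0.473. Among themselves the 6 immunity-related GTPases had residual correlations of 0.717 (Tgtp1 with Tgtp2) to 0.908 (Igtp with Irgm2), and Gvin1 had at most 0.198 with any of them. These samples share flow cells and depth, and the values are descriptions.

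Over the 47 group means Iigp1 and Tgtp2 were closest to the chemokine gene Cxcl9 (r = 0.979 and 0.969), Igtp to Ccl1 and Ifng (r = 0.965 and 0.963) and Irgm2 to Gbp3 (r = 0.974). Irgm1 stood further from all genes, with Olfr56 at 0.861 and Ifi47 at 0.822. Both lie on chromosome 11 as Irgm1 does, with other genes between, Olfr56 at chr11:48978889-49135387 and Ifi47 at chr11:49076587-49096974, and Olfr56 overlaps Tgtp1 and Tgtp2 on the other strand. Gvin1's closest genes were Gdpd3, Lipo2 and Lipo4, at 0.971, 0.967 and 0.951.

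Cultured lines, with 1 library each and no test, held low levels of the effectors. Tgtp2 was 0 to 1.02 in 3 KPB lines and 4.45 to 6.82 in 3 T11 lines, and Iigp1 was at 0 in the 3 KPB lines and at 2.19 to 4.69 in the T11 lines. Irgm1 was present in all 6, at 7.66 to 9.75. Gvin1 was at 0 in the 3 T11 lines and at 5.74 to 8.37 in the 3 KPB lines, the same split as in tumours, while Gm4070 was above 0 in all 6 (6.36 to 9.87). Ifng and Cd8a were at 0 in all 6 lines. This table was normalized separately, so these levels are not set against those of tumours by a test.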

How the data were processed

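RNA-seq of 264 tumour or gland libraries and 6 cultured lines was used; 13 exome samples were left out. Per the file headers, the authors deposited upper-quartile normalized signal for each gene. STAR, Salmon, SAMtools, Picard and mm10 are named in the submitters' processing notes, and how each was used is not given in the sources used here. Entries with date-like (39) or repeated (28) names, 0.21 to 0.457% of a library's total, were dropped. Genes above 0 in at least 4 samples and in the upper 66.7% by mean were tested on log2(value + 1) with limma 3.58.1 (R 4.3.3, trend, Benjamini-Hochberg over all genes): 20848 genes in 192 samples of 47 groups for the classed models, 20876 in 63 samples for glands and the remaining models, 17920 over 12 model means. The 2 libraries of 1 KPB25L mouse were averaged. Tables were normalized separately and never tested together. Depth was estimated from steps between low values; 27.4 to 83.8% of low values came out whole within 0.01, so no count test was run.

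All 7 members are named in every comparison; of each list up to 3 called genes with the smallest adjusted p are named, and for each member genes from the 3 of largest correlation, of which 1 gene is not reported here. Members and lists were chosen with earlier results of these data known. Alternatives were pseudocounts of 0.1 and 10, no filter, rescaling by the median log ratio, a flow-cell term, the spread of the compared groups alone, 1 prior variance, leaving out libraries, FVB glands alone and, chosen after seeing the data, summed near-identical genes.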

Additional observations from a re-analysis of the deposited data

Results flagged for a closer look

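Among 284 sets of a gene and a group of 4 to 10 samples, 32 had 1 library far from the others. Chance flags about 1 in 20 such sets. Of these 32, 14 are Gvin1.

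Among the regulators, Igtp was 12.88 in BALB/c gland replicate 1 (others 11.03 to 11.56), 9.22 in treated p53-2225L replicate 1 at 3 days (others 7.68 to 8.03) and 10.84 in untreated p53-2225L replicate 5 at the end point (others 7.27 to 8.1). Irgm1 was 13.38 in ILC replicate 3 (others 11.58 to 12.53), 13.39 in untreated KPB25L-UV replicate 3 at 3 days, a library with T11 markers (others 11.87 to 12.05), 12.51 in BALB/c gland replicate 1 (others 10.88 to 11.31) and, on the low side, 10.65 in treated p53-2336R replicate 2 at the end point (others 12.04 to 12.47). Irgm2 was 10.82 in untreated KPB25L replicate 2 at the end point (others 8.61 to 9.34), 11.95 in BALB/c gland replicate 1 (others 11 to 11.22) and 9.96 in untreated p53-2225L replicate 5 at the end point (others 7.7 to 8.17).

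Among the effectors, Iigp1 was 10.14 (others 5.25 to 6.16) and Tgtp2 9.93 (others 5.55 to 6.69) in that same p53-2225L replicate 5. Tgtp1 was 10.6 in untreated KPB25L replicate 5 at 3 days (others 6.32 to 7.37), 10.47 in treated KPB25L-UV replicate 3 at the end point (others 6.76 to 7.36), 8.06 in treated T11 replicate 4 at 7 days (others 6.38 to 6.6) and, on the low side, 8.69 in treated p53-2336R replicate 2 at the end point (others 12.12 to 12.72). Tgtp2 was 10.45 in that T11 replicate 4 (others 9.36 to 9.46) and 14.47, the low value, in treated T11-Apobec replicate 4 at 3 days (others 14.93 to 14.99). BALB/c gland replicate 1 and p53-2225L replicate 5 stood apart for several genes at once.

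Gvin1 was 10.38 in KPB-1B replicate 3, where the others were at 8.55 to 8.77. The other 13 were single libraries above 0 in groups otherwise at 0. In T11 they were 4.22 in treated replicate 1 at 3 days, 5.15 in treated replicate 2 and 4.58 in untreated replicate 4 at the end point. T11-Apobec had 3.51 in untreated replicate 3 at 3 days, 5.29 in treated replicate 2 at 7 days and 2.1 in treated replicate 1 at the end point, and T11-UV had 6.33 in untreated replicate 1 at 7 days and 4.32 in treated replicate 5 at the end point. p53-2225L had 4.43 in treated replicate 4 and 5.22 in untreated replicate 4 at 3 days, p53-2153F had 8.36 in replicate 1, p53-9263-3 had 8.7 in replicate 3, and BALB/c gland replicate 5 had 5.22.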

How the results depend on the processing

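No paired analysis was possible because replicate numbers only follow accession order and mark no shared mouse or batch. Of 219 counts of members called under alternatives other than leaving out a library, 200 stayed within 1.5 times the main count, and of 1239 values of single members 1179 kept direction and side of the threshold. For the sensitive models at 3 days the count was 2, and it was 4 after rescaling, 4 without the KPB25L-UV libraries with T11 markers, 0 with a flow-cell term and 0 with the spread of the compared groups alone. With the flow-cell term the resistant models at 3 days had 1, T11-UV at 7 days 0 and T11-Apobec at 7 days 2. T11-Apobec at 7 days also had 0 with no filter, 2 after rescaling, 5 with its own spread and 2 without the marked libraries. KPB25L-UV at 7 days had 1 without them. Untreated T11-UV minus T11 had 3 with no filter. With Gvin1 and Gm4070 summed, T11 minus KPB25L and the glands had 0, and C3-TAG and ILC 1 each. With FVB glands alone C3-TAG had 1 and ILC 0. Leaving out 1 library gave 5 to 6 for the sensitive models at 7 days, 1 to 4 at 3 days, 3 to 6 for T11-UV at 7 days, 0 to 1 for T11-Apobec at 7 days, 0 to 5 for untreated T11-UV minus T11, 1 to 2 for ILC (1 without ILC replicate 3, 4 or 6, BALB/c gland replicate 3 or FVB gland replicate 3), and leaving out 1 model gave 0 to 4 between classes.

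Reversed values were few. For Gvin1 they were 0.20 in the resistant models at 3 days with a flow-cell term, -0.07 in the sensitive models at the end point with pseudocount 10, -0.64 in T11-Apobec at 7 days with pseudocount 0.1, and -2.24 (KPB-Primary), -2.72 (PyMT) and -0.33 (ILC) with FVB glands alone. Irgm1 in KPB25L-UV at 7 days was 0.01 after rescaling and 0.76 without the marked libraries. With the flow-cell term T11 minus KPB25L was -3.22 for Igtp, -2.68 for Irgm2, -2.38 for Iigp1, -4.49 for Tgtp1 and -2.40 for Tgtp2, and BALB/c minus FVB glands was -0.13 for Igtp, -0.08 for Irgm1 and -0.01 for Irgm2. Iigp1 was -0.15 in PyMT and -0.06 in ILC with that term, and -0.32 and -0.23 with FVB glands alone, where C3-TAG had Igtp at 0.08 and Irgm2 at 0.01. The cause was not tested. A flow-cell term could not be fitted for untreated T11-UV minus T11 at 7 days, untreated tumours at the end point minus 3 days, C3-TAG minus glands, or therapy in T11-Apobec or KPB25L-UV at the end point. Values of Gvin1 at 0 carry no fold change.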
